A study of Homo sapiens with 24 samples.

Results

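SR proteins and the other splicing factors that gather in nuclear speckles were followed in U2932 cells, which derive from a human diffuse large B-cell lymphoma. The group held 42 genes, taken by symbol from 61541 genes of the 48 h table and 19836 of the 72 h table. It comprised 13 SR proteins, 8 SR-related matrix and speckle scaffold proteins, 9 LUC7-like, U1 and U2 recognition factors, 5 RNA-binding proteins of the RBM family, and 7 kinases and cyclins of splicing. PNN, ARGLU1, LUC7L, LUC7L3, RBM5 and RBM6 were chosen because they were seen lower with PNA2, so their values are a description with no test, also in the siRNA comparison, which uses the same PBS libraries. The other 36 were added by function. All 42 were present in both tables, and 41 passed the filter on low values at 48 h and 42 at 72 h.

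The study asked how RNA levels change after reagents aimed at the oncogene MYC. PNA2 is a gamma PNA, that is, a DNA mimic whose bases hang on a peptide-like chain, added to the medium at a dose the labels write as 8 mM, a unit that is doubtful. The siRNA was given at 500 nM by electroporation for 48 h, and no electroporated control is named, so its comparison holds the electroporation too. There were 6 PBS controls labelled wild type, 4 PNA2 libraries and 4 siRNA libraries at 48 h, and 5 PBS and 5 PNA2 libraries at 72 h. PNA2 and siRNA libraries are both labelled as MYC knockdown. The labels do not say that replicates were separate cultures, so the p-values measure the spread between these libraries, which may be technical. For the siRNA libraries the entry for the cell line gives other numbers, although the text on treatment names U2932, and the extraction text names 48 h for every library, against the titles of the later ones.

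Totals per library ran from 11.12 M to 16.17 M at 48 h, and reads from 8.22 M to 13.69 M at 72 h. All 8 B cell markers examined were expressed in every group, and the summed T and NK cell, myeloid and erythroid markers each stayed at or below 5.18 per M of the library total, with CD3D, CD2, GNLY, S100A8, S100A9, ALAS2, PF4 and PPBP at 0 in every library. The stroma and epithelium list, which includes VIM, summed to 139.4 to 172.7 per M in the 48 h controls and 195.1 to 309.0 with PNA2, and to 112.8 to 151.1 and 125.8 to 182.8 at 72 h, and its part in the results below was not tested. MYC itself, as the check of the labels, was at 5381 to 7767 in the 48 h controls, 7242 to 9052 in the libraries labelled PNA2 and 3598 to 4184 in the siRNA libraries. The log2 difference was 0.24 ± 0.10 (SE) for PNA2, with an adjusted p of 0.114, and -0.82 ± 0.11 for siRNA, with an adjusted p of 0.000396. At 72 h MYC was at 826.4 to 2845 in the controls and 459.9 to 2032 in the libraries labelled PNA2, with a log2 difference of -0.18 ± 0.45 and an adjusted p of 0.794. The PNA2 libraries thus showed no MYC decrease that passed the test, and they are named below by their label.

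SR proteins carry RNA recognition motifs and a tail rich in arginine and serine. They bind exonic enhancers and help the U1 particle find the upstream splice site and the U2AF dimer find the downstream one. CLK and related kinases phosphorylate the tails and release the proteins from speckles, where PNN, SON, SRRM1 and SRRM2 are resident. Many genes of this class limit their own protein by splicing their transcripts into forms that are degraded by nonsense-mediated decay or kept in the nucleus. In GENCODE 29, 37 of the 42 genes (88.1%) have at least 1 transcript annotated as a decay target, against 44.0% of the 11966 protein-coding genes tested at 72 h, and 85.7% have a retained-intron transcript against 58.0%. The 42 genes also have more annotated transcripts, a median of 13.5 against 8.0, which these percentages do not account for. Gene-level values add all these forms together, and their shares were not analysed here.

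Promoters bear on a study of MYC because MYC binds the E-box CACGTG. The 250 bases before each start were read from RefSeq (GRCh38.p14), in which 37 of the 42 genes had at least 1 entry, 47 entries in all. CACGTG, which reads the same on both strands, lay in the window of 3 genes, CLK2, CLK4 and U2SURP. These are 3 of 47 entries, beside 6.34% of all 35116 promoter entries. The ETS motif CCGGAAG, searched on both strands, lay in 9 of 47 entries (19.2%), beside 8.52% of all entries. In U2SURP, which holds both, they do not overlap, and a match is a description and not a binding site. The stretches around the E-box of both CLK genes are shown because CLK2 is a called gene in all 3 comparisons with PBS and CLK4 is not called at 48 h. Each is within the span of its gene but in no annotated exon, on the minus strand, and the capitals mark the E-box, which starts 72 bases before the CLK2 start and 111 bases before the CLK4 start.
CLK2, chr1:155273517-155273666: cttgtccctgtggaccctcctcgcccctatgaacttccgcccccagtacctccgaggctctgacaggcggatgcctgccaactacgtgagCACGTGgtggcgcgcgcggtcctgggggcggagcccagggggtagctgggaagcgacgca
CLK4, chr5:178627115-178627264: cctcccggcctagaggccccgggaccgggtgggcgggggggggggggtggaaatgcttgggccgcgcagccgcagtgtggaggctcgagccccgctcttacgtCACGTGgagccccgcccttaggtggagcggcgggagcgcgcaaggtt

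At 48 h the libraries labelled PNA2 held less RNA of most of these splicing factors than the controls, by modest amounts. Of the 36 genes added by function, 35 could be tested, and 19 were lower and 0 higher (limma, adjusted p under 0.05 over all genes tested). All 35 had a negative log2 difference, with a median of -0.26 beside a median of -0.001 over all genes. In the background, 8.04% of 14136 genes were lower and 8.11% higher. The 4 PNA2 and 6 control libraries did not overlap, with PNA2 below, in 9 of the 35, beside 4.87% of all genes. When the deposited values were not rescaled for depth, the count was 1, beside 167 of all 14136 genes lower. Of the 35, 25 were then negative, and the median was -0.06 beside 0.19 for all genes. The count was 14 within batch A and 9 within batch B, with 33 and 28 of the 35 negative. Over all 14136 genes 1066 were lower within batch A and 422 within batch B. PNA2 replicate 2 stood apart. Without it 15 were lower, beside 1219 of all genes, and 32 of the 35 were negative with a median of -0.19.

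**Figure D1:**
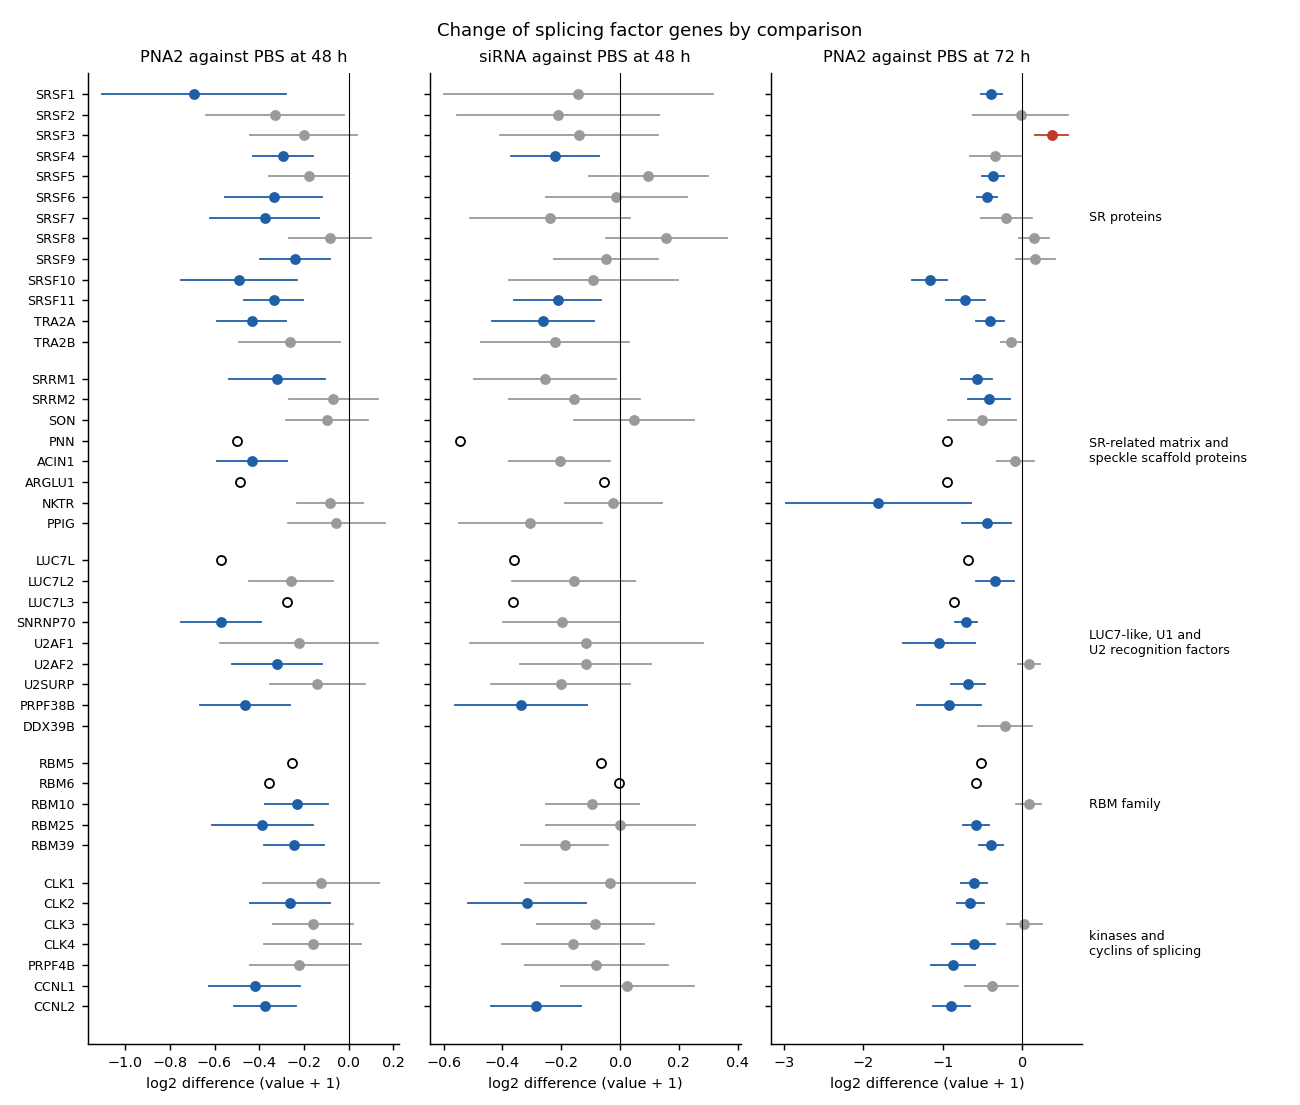
Log2 difference of each gene in 3 comparisons, on the scale of log2(value + 1), with x axes of different width. Points with lines are tested genes with their 95% confidence interval, blue where lower, red where higher and grey where not called, and open circles are the 6 genes chosen on PNA2 values, with no test; blue points lie on the left in every panel and the only red point is SRSF3 at 72 h.

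Among the SR proteins, 8 of 13 were lower at 48 h with PNA2, with a median of -0.33. SRSF1, the founding member of the family and a proto-oncogene, had the largest difference of any tested gene of the group. It was at 1476 to 2350 in the controls (median 1841) and at 1480, 635, 1461 and 1348 in the 4 PNA2 libraries, -0.69 ± 0.19 (SE) with an adjusted p of 0.0247 (limma). Replicate 2 was far below the other 3 PNA2 libraries, and replicate 1 lay inside the control range. The difference was -1.10 within batch A, which holds replicates 1 and 2, and -0.28 within batch B.

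SRSF10, a splicing repressor when dephosphorylated, ran from 3354 to 4541 in the controls (median 4072) and was at 3486, 2006, 2991 and 3137 with PNA2, -0.49 ± 0.12 with an adjusted p of 0.0138. SRSF11 was at 3442 to 4202 in the controls (median 3652) and at 3148, 2848, 2826 and 2976 with PNA2, -0.33 ± 0.06. The SRSF11 groups did not overlap, and its adjusted p was 0.00280. TRA2A, an enhancer-binding relative of the Drosophila transformer-2 protein, was at 1057 to 1256 in the controls (median 1168) and at 967, 751, 894 and 858 with PNA2, also without overlap, -0.43 ± 0.07 with an adjusted p of 0.00164.

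SRSF4 was at 1939 to 2186 in the controls (median 2025) and at 1840, 1563, 1527 and 1754 with PNA2, -0.29 ± 0.06 with an adjusted p of 0.00681. SRSF6 was at 2127 to 2511 (median 2357) and at 2186, 1359, 1983 and 1977, -0.34 ± 0.10 with an adjusted p of 0.0352. The SRSF4 groups stood apart, while 1 PNA2 library of SRSF6 lay within the controls. SRSF7 and SRSF9 were the other lower members, and SRSF2, SRSF3, SRSF5, SRSF8 and TRA2B did not pass the test, with differences from -0.33 to -0.08.

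Of the scaffold proteins, 2 of 6 tested genes were lower at 48 h. SRRM1, a co-activator in speckles, was at 2619 to 3594 in the controls (median 3220) and at 2597, 1984, 2558 and 2888 with PNA2, -0.32 ± 0.10 with an adjusted p of 0.0429. ACIN1 was the other, at -0.43, and the PNA2 libraries of ACIN1 all lay below the controls. The large speckle organizers SRRM2 and SON differed by -0.07 and -0.10 and did not pass.

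PNN, a desmosome-linked protein of speckles, was among the chosen genes. It was at 2517 to 2877 in the 48 h controls (median 2715), at 2284, 1692, 1811 and 1883 with PNA2 and at 1963, 2004, 1691 and 1923 with siRNA. Both treated groups lay below every control. ARGLU1, an arginine- and glutamate-rich co-factor, was at 1946 to 2392 in the controls (median 2093), at 1854, 1208, 1514 and 1518 with PNA2 and at 2069, 2012, 1964 and 2070 with siRNA. Here the siRNA libraries stayed inside the control range and the PNA2 libraries lay below it.

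**Figure D2:**
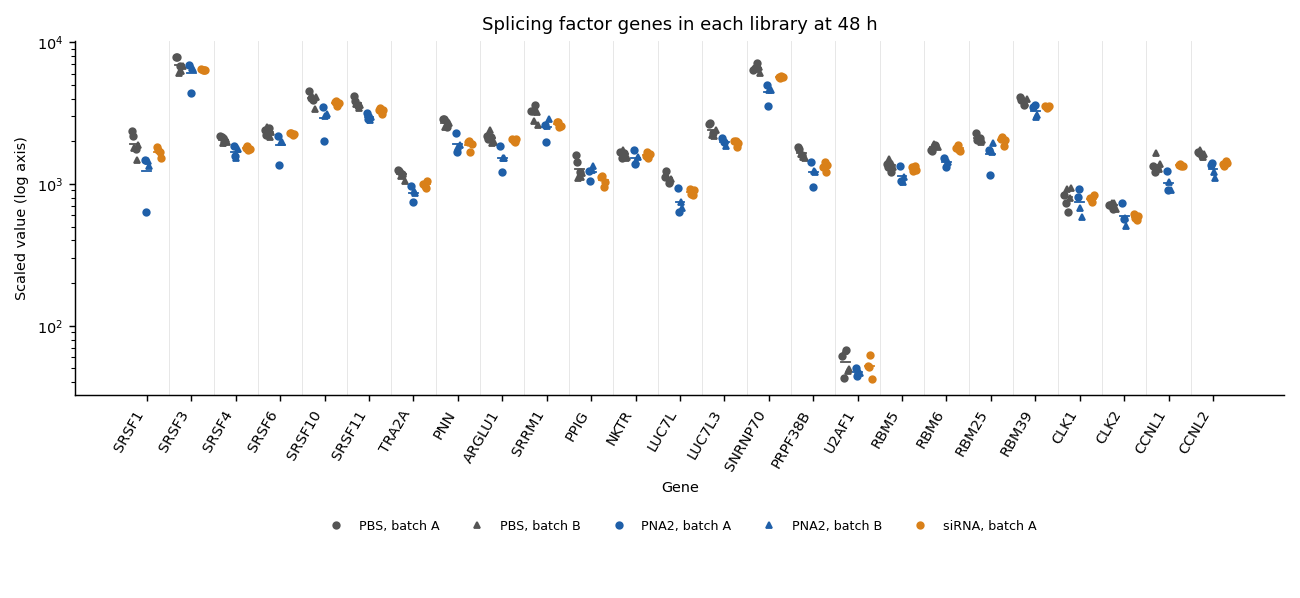
Scaled value of 25 genes in each 48 h library on a log axis, by group (PBS grey, PNA2 blue, siRNA orange), with circles for batch A, triangles for batch B and a bar at each group mean. The blue points of SNRNP70, PNN and LUC7L all lie below the grey ones.

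The recognition factors guide the first steps of assembly on an intron. SNRNP70, the U1 protein that SR proteins contact at the upstream splice site, was at 6103 to 7094 in the 48 h controls (median 6533), at 5019, 3536, 4614 and 4628 with PNA2 and at 5639, 5567, 5778 and 5692 with siRNA. The PNA2 difference was -0.57 ± 0.08 with an adjusted p of 0.000659, and it was -0.66 within batch A and -0.48 within batch B. SNRNP70 is on chr19:49085419-49108605, plus strand (GRCh38, GENCODE 29). It was the 1 member of 19 whose call held under all 23 alternatives to the settings at 48 h.

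PRPF38B, a spliceosome component with an arginine and serine rich tail, was at 1512 to 1827 in the controls (median 1612), at 1436, 952, 1225 and 1207 with PNA2 and at 1316, 1428, 1218 and 1370 with siRNA. No treated library reached the lowest control, and the differences were -0.46 ± 0.09 with PNA2 (adjusted p 0.00484) and -0.34 ± 0.10 with siRNA (adjusted p 0.0379). U2AF2, the large subunit of the U2AF dimer, was also lower with PNA2, at -0.32, and 3 of the 6 tested recognition factors were lower in all. U2AF1, the small subunit, was listed at only 43.1 to 67 in the controls and 44.2 to 50.1 with PNA2. Reads of this gene may be split with a near-identical copy, so its level is uncertain. DDX39B, a helicase of U2 recruitment and mRNA export, was listed at 0 or 1 in every 48 h library but at 2847 to 5074 at 72 h, and it could not be tested at 48 h.

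LUC7L, LUC7L2 and LUC7L3 are relatives of a yeast U1 protein that tunes the choice of upstream splice sites. LUC7L was at 1015 to 1237 in the controls (median 1099), at 933, 637, 743 and 682 with PNA2 and at 921, 855, 840 and 904 with siRNA. LUC7L3 was at 2166 to 2697 (median 2344), at 2093, 1976, 2001 and 1845 with PNA2 and at 1999, 2017, 1819 and 1955 with siRNA. Both were below every control in both treatments. LUC7L2, added by function, differed by -0.26 with PNA2 and did not pass, with an adjusted p of 0.0601.

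In the RBM family all 3 tested genes were lower with PNA2 at 48 h. RBM25, which binds exonic enhancers and is linked to U1, was at 1974 to 2288 in the controls (median 2077) and at 1736, 1153, 1691 and 1948 with PNA2, -0.39 ± 0.11 with an adjusted p of 0.0236. RBM39, a U2AF-related factor, was at 3619 to 4114 (median 3924) and at 3509, 3592, 2971 and 3084, -0.24 ± 0.06 with an adjusted p of 0.0166. The groups of both genes stood apart, and RBM10 differed by -0.23. RBM5 was at 1205 to 1501 in the controls (median 1345) and at 1343, 1053, 1034 and 1112 with PNA2. RBM6 was at 1715 to 1925 (median 1830) and at 1530, 1309, 1410 and 1419. RBM5 overlapped the controls and RBM6 did not, and both are candidate tumour suppressors. With siRNA, RBM5 was at 1237 to 1344, inside the control range, and RBM6 at 1711 to 1890, with its lowest library just under it.

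Of the 7 kinases and cyclins, 3 were lower at 48 h. CCNL1 and CCNL2 are L-type cyclins that partner CDK11 in speckles. CCNL1 was at 1209 to 1658 in the controls (median 1317) and at 1238, 901, 1030 and 904 with PNA2, -0.42 ± 0.10 with an adjusted p of 0.00887. CCNL2 was at 1554 to 1741 (median 1636) and at 1357, 1404, 1208 and 1101, -0.37 ± 0.07 with an adjusted p of 0.00178. CCNL1 overlapped the controls in 1 library, and CCNL2 did not overlap. CLK2, a kinase of SR protein tails, was at 663 to 739 (median 712) and at 730, 567, 571 and 504, -0.26 ± 0.08 with an adjusted p of 0.0460, with 1 PNA2 library inside the control range.

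Of the 35 tested genes, 1 had a PNA2 difference that itself differed between the batches, CLK1. Over all 14136 genes the interaction of PNA2 and batch was called in 2.50%, so a count of 1 is near the background. CLK1 was at 638 to 934 in the controls (median 812) and at 810, 916, 672 and 587 with PNA2, a log2 difference of 0.24 in batch A and -0.49 in batch B. The difference between batches, -0.72 ± 0.16, had an adjusted p of 0.0324 (limma), and the cause was not tested.

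With siRNA at 48 h 6 of the 35 tested genes were lower and 0 higher: SRSF4, SRSF11, TRA2A, PRPF38B, CLK2 and CCNL2. Of the 35, 30 were negative, and the median was -0.16 beside -0.01 for all genes. In the background 8.52% of genes were lower and 8.72% higher. The libraries did not overlap, with siRNA below, in 10 of the 35, beside 6.87% of all genes. Without rescaling the count was 0, beside 74 of all 14136 genes lower. The direction of the group turned, with 7 of 35 negative and a median of 0.08 beside 0.22 for all genes. CCNL2 alone was called when any 1 siRNA library, or PBS replicate 1 or 2, was left out, and none of the 6 calls held under all 22 alternatives. With those libraries left out, 8.42% to 11.71% of all genes were called in either direction, against 17.24% with all libraries.

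Of the genes chosen on PNA2 values, PNN differed by -0.54 with siRNA, LUC7L3 by -0.36 and LUC7L by -0.36, as a description. CCNL2 was at 1376, 1344, 1450 and 1398 with siRNA, below every control, -0.29 ± 0.07 with an adjusted p of 0.0137. CLK2 was at 611, 571, 556 and 591, also below, -0.32 ± 0.09 with an adjusted p of 0.0303.

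Among SR proteins TRA2A was at 1007, 972, 943 and 1053 with siRNA, -0.26 ± 0.08 with an adjusted p of 0.0376. SRSF4 was at 1806, 1842, 1749 and 1759, -0.22 ± 0.07 with an adjusted p of 0.0419, and SRSF11 at 3331, 3447, 3126 and 3296, -0.21 ± 0.07 with an adjusted p of 0.0455. TRA2A and SRSF4 lay below every control and SRSF11 overlapped them by 1 library. Without rescaling, the siRNA differences of SRSF4 and SRSF11 were 0.01 and 0.02. All siRNA libraries are in batch A. Against the batch A controls alone 4 of 35 tested genes were lower, near the background of 1318 of all 14136 genes. The 4 were CCNL2, TRA2A, SRRM1 and PPIG, of which CCNL2 and TRA2A are among the 6. No tested gene of the RBM family passed, and SRSF1, SRSF6 and SRSF10 differed by -0.14, -0.01 and -0.09.

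Set directly against siRNA, PNA2 gave lower levels of 3 of 35 tested genes and higher levels of 0, with a median of -0.12 beside 0.004 for all genes. This share is near the background, in which 11.5% of genes were lower and 12.0% higher. The 3 were SNRNP70 at -0.37 ± 0.10 (adjusted p 0.0144), RBM25 at -0.39 ± 0.13 (adjusted p 0.0384) and CCNL1 at -0.45 ± 0.12 (adjusted p 0.0107). SNRNP70 and CCNL1 libraries did not overlap between the treatments, with the siRNA libraries of CCNL1 at 1363, 1382, 1334 and 1343, and those of RBM25 at 2075, 2152, 1864 and 2025. Within batch A the differences were -0.43, -0.52 and -0.36. ARGLU1 and RBM6, chosen on PNA2 values, had differences of -0.43 and -0.355, and PNN and LUC7L3 of 0.04 and 0.09. Without PNA2 replicate 2, the count was 5, of which 2 were lower and 3 higher. Both are below the background of 1864 lower and 2046 higher of 14136 genes. The median was then -0.051, and 21 of 35 were negative, against 31 with all libraries.

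At 72 h most of the tested genes were lower with PNA2, with some in each role. Of 36 tested, 22 were lower and 1 higher, 30 were negative, and the median was -0.41 beside -0.01 for all genes. In the background, 11.7% of 11985 genes were lower and 12.1% higher. The 5 PNA2 and 5 control libraries did not overlap, with PNA2 below, in 20 of 36, beside 9.18% of all genes. By role, 6 of 13 SR proteins, 4 of 6 scaffold proteins, 5 of 7 recognition factors, 2 of 3 RBM genes and 5 of 7 kinases and cyclins were lower. Of the 23 calls, 19 held under all 18 alternatives, edgeR and DESeq2 on the recovered reads included.

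**Figure D3:**
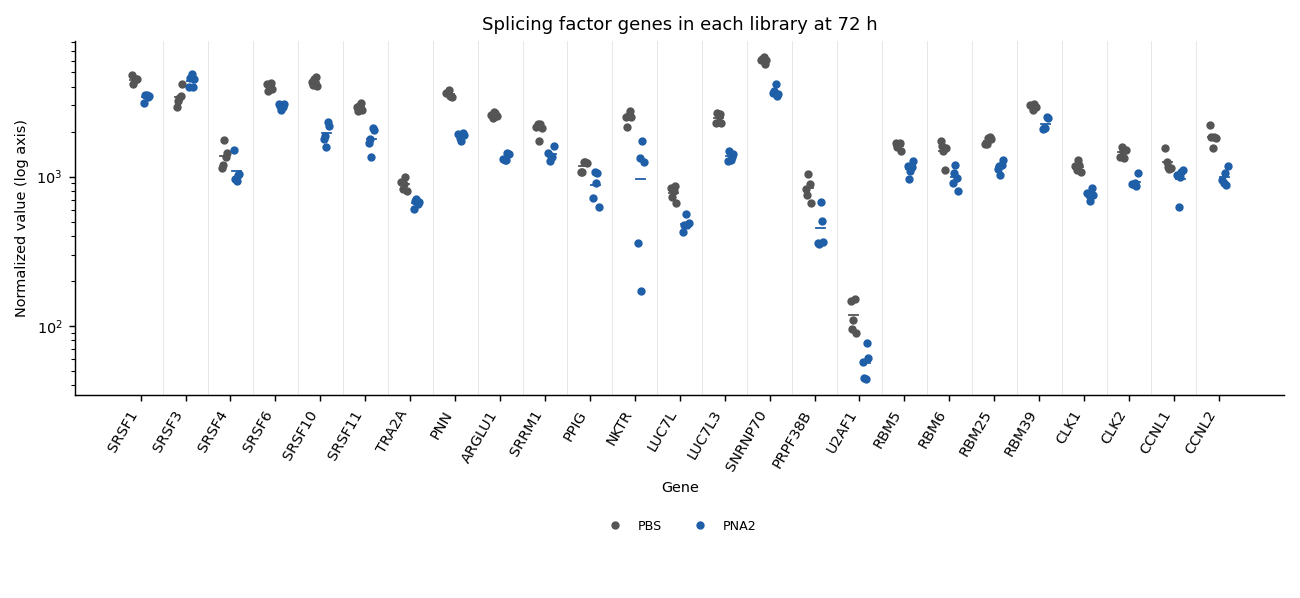
Normalized value of 25 genes in each 72 h library on a log axis, PBS grey and PNA2 blue, with a bar at each group mean. PNN, ARGLU1 and SNRNP70 form separate bands, while the 5 blue points of NKTR spread from 172 to 1732.

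SRSF10 showed the most marked SR protein change at 72 h, with controls at 4299, 4106, 4520, 4684 and 4078 and PNA2 libraries at 1784, 1886, 1580, 2318 and 2176. The log2 difference was -1.17 ± 0.10 with an adjusted p of 6.84e-05 (limma). The groups were far apart, with the highest PNA2 library well under the lowest control. SRSF11 was at 2927, 2761, 2980, 3124 and 2806 in the controls and at 1674, 1786, 1346, 2111 and 2062 with PNA2, -0.72 ± 0.11 with an adjusted p of 0.00174.

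SRSF1 was at 4799, 4148, 4436, 4512 and 4501 in the controls and at 3133, 3540, 3549, 3426 and 3449 with PNA2, -0.39 ± 0.06 with an adjusted p of 0.00163. SRSF6 was at 4184, 3779, 4084, 4273 and 3872 and at 3064, 2984, 2802, 2929 and 3088, -0.44 ± 0.06 with an adjusted p of 0.000760. TRA2A was at 916, 826, 891, 998 and 803 and at 608, 685, 709, 651 and 681, -0.41 ± 0.08 with an adjusted p of 0.00449. The groups of all 3 genes stood apart. SRSF5 was the sixth lower SR protein.

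SRSF3, the smallest SR protein and a regulator of its own splicing, was the 1 member that rose, and it is named because its values stood out after they were seen. It was at 2911, 3198, 3358, 3462 and 4157 in the controls and at 3980, 4594, 4889, 3989 and 4533 with PNA2, 0.37 ± 0.10 with an adjusted p of 0.0178. One control library reached into the PNA2 range. SRSF4, lower at 48 h, was at 1150, 1189, 1768, 1358 and 1440 in the controls and at 1505, 967, 929, 1022 and 1050 with PNA2 and did not pass, with an adjusted p of 0.113. Without PNA2 replicate 1, the library at 1505, SRSF4 did pass, at -0.46 with an adjusted p of 0.0259.

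Among scaffold proteins, PNN was at 3661, 3622, 3815, 3469 and 3407 in the controls and at 1934, 1825, 1730, 1952 and 1907 with PNA2, a difference of -0.94. ARGLU1 was at 2598, 2482, 2730, 2682 and 2559 and at 1305, 1294, 1294, 1449 and 1412, a difference of -0.95. Both groups were tight and well separated. SRRM1 was at 2143, 2256, 1735, 2253 and 2128 and at 1431, 1281, 1369, 1357 and 1609, -0.57 ± 0.09 with an adjusted p of 0.00170.

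NKTR, a large cyclophilin with an arginine and serine rich tail, had the largest difference of the whole group at 72 h and the widest spread. It was at 2497, 2149, 2577, 2762 and 2504 in the controls and at 361, 1333, 172, 1732 and 1251 with PNA2, -1.81 ± 0.54 with an adjusted p of 0.0304. All 5 PNA2 libraries were below every control, but the difference lost its call in edgeR (-1.37, adjusted p 0.0555) and without any of PBS replicates 1, 3, 4 or 5 or PNA2 replicate 1 (adjusted p 0.0557 to 0.0735). At 48 h NKTR was at 1521 to 1748 in the controls (median 1606) and at 1724, 1386, 1460 and 1544 with PNA2, a difference of -0.08 that did not pass. NKTR is on chr3:42600614-42648741, plus strand. The calls of PPIG, a related cyclophilin, and of SRRM2 and LUC7L2 were also lost when some single libraries were left out.

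Of the recognition factors SNRNP70 was at 6044, 6131, 6354, 5725 and 6054 in the controls and at 3642, 3736, 4157, 3464 and 3584 with PNA2, -0.71 ± 0.06 with an adjusted p of 6.84e-05. The groups were clearly apart. PRPF38B was at 823, 755, 1050, 887 and 669 and at 360, 356, 675, 505 and 363, -0.92 ± 0.18 with an adjusted p of 0.00545, with 1 PNA2 library just above the lowest control. U2AF1 was at 147, 94.6, 110, 151 and 89.1 and at 57.1, 44.6, 43.9, 76.9 and 61.3, -1.04 ± 0.21 with an adjusted p of 0.00494, at a level that the near-identical copy makes uncertain. U2SURP, a U2 factor whose promoter entry also holds the E-box, was lower by -0.68, while U2AF2 and DDX39B did not pass.

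LUC7L was at 841, 729, 800, 871 and 664 in the 72 h controls and at 425, 474, 561, 475 and 487 with PNA2, a difference of -0.69. LUC7L3 was at 2278, 2679, 2538, 2613 and 2297 and at 1270, 1491, 1290, 1365 and 1410, a difference of -0.86. Neither gene overlapped between the groups. LUC7L2, by function the third of the family, differed by -0.35 and passed with an adjusted p of 0.0387, and its libraries overlapped.

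RBM25 was at 1658, 1646, 1813, 1831 and 1780 in the controls and at 1133, 1181, 1019, 1202 and 1302 with PNA2, -0.58 ± 0.08 with an adjusted p of 0.000714. RBM39 was at 3013, 2987, 2797, 3046 and 2951 and at 2087, 2117, 2117, 2494 and 2482, -0.39 ± 0.07 with an adjusted p of 0.00305. Both stood apart from the controls, as did RBM5 in the description. RBM5 was at 1694, 1569, 1638, 1679 and 1477 and at 1172, 959, 1097, 1154 and 1267, a difference of -0.52. RBM6 was at 1723, 1613, 1478, 1104 and 1545 and at 912, 1054, 1204, 978 and 806, a difference of -0.59 with 1 overlapping control. RBM10 differed by 0.08 and did not pass.

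CCNL2 was at 2213, 1849, 1547, 1838 and 1814 in the controls and at 949, 910, 1051, 884 and 1184 with PNA2, -0.89 ± 0.11 with an adjusted p of 0.000481. CLK2 was at 1352, 1584, 1482, 1336 and 1518 and at 896, 888, 913, 864 and 1059, -0.65 ± 0.08 with an adjusted p of 0.000504. Both groups were apart. CLK1, CLK4 and PRPF4B, kinases of splicing factors, were lower by -0.61, -0.61 and -0.87. CCNL1 was at 1546, 1246, 1158, 1121 and 1151 and at 1033, 628, 992, 1069 and 1100, below every control, yet it did not pass, with an adjusted p of 0.0847, and CLK3 differed by 0.03.

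The PNA2 comparisons at the different times share no libraries, but they come from tables made in different ways, so their sizes were set side by side and not tested. Of 35 genes tested at both, 12 (34.3%) were lower at both, beside 2.90% of the 11341 genes tested at both: SRSF1, SRSF6, SRSF10, SRSF11, TRA2A, SRRM1, SNRNP70, PRPF38B, RBM25, RBM39, CLK2 and CCNL2. They make up 63.2% of the genes lower at 48 h and 54.5% of the 22 lower at 72 h, beside 33.8% and 24.1% over all genes. This overlap depends on the 48 h settings, as without rescaling SNRNP70 alone kept its 48 h call. Of 23 alternatives at 48 h, CLK2 was called in 8, SRSF6 in 9 and SRRM1 in 11, but SRSF11, TRA2A and PRPF38B in 21. In either direction, 7 passed at 48 h alone, 11 at 72 h alone, SRSF3 among them, and 5 at neither. Across the 35 genes the log2 differences at 48 h and 72 h had a Pearson correlation of 0.06 and a Spearman correlation of 0.09, as a description over genes, which are not independent.

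**Figure D4:**
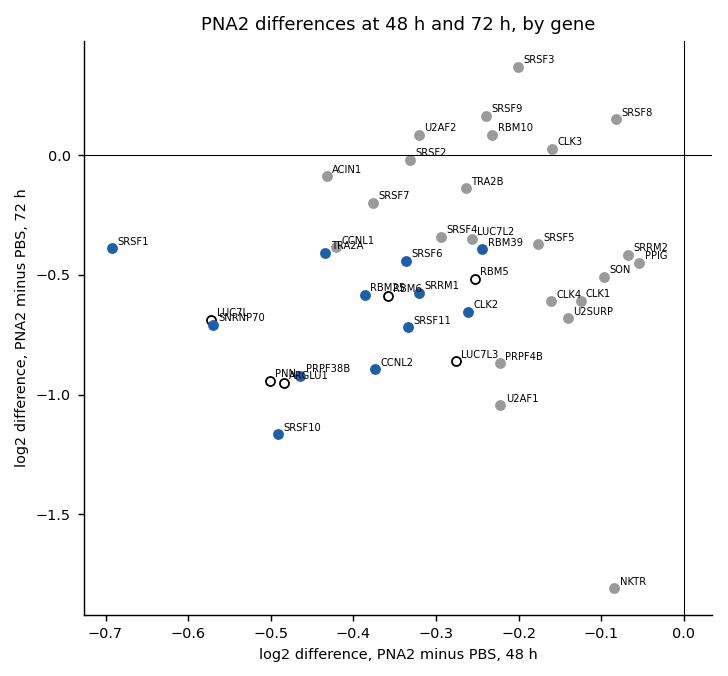
Log2 difference of PNA2 from PBS at 48 h (x axis) and 72 h (y axis), 1 point per gene, blue for the 12 genes lower at both times, grey for other tested genes and open for the 6 chosen genes. All points lie left of 0 on the x axis. SRSF3 lies highest on the y axis, some other points also lie above 0 on it, and NKTR lies lowest.

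The summed level of the 36 genes added by function, as a share of each library's total, was 0.870% ± 0.038 (SD, n = 6) in the 48 h controls, 0.700% ± 0.058 (n = 4) with PNA2 and 0.821% ± 0.010 (n = 4) with siRNA. At 72 h it was 0.925% ± 0.011 (n = 5) in the controls and 0.662% ± 0.032 (n = 5) with PNA2. Every PNA2 library lay below every control of its time. Transcripts of the mitochondrial genome moved the other way with PNA2. They made up 1.54% to 3.21% of the total in the 48 h controls and 4.93% to 6.21% with PNA2. At 72 h they made up 3.96% to 4.63% in the controls and 6.15% to 8.30% with PNA2. In the siRNA libraries they made up 2.08% to 2.37%. All 5 mitochondrial genes of the stress and RNA quality list were higher with PNA2 at both times, and their part in the result was not tested. In bulk RNA, fewer cells expressing a gene and less RNA per cell cannot be told apart.

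**Figure D5:**
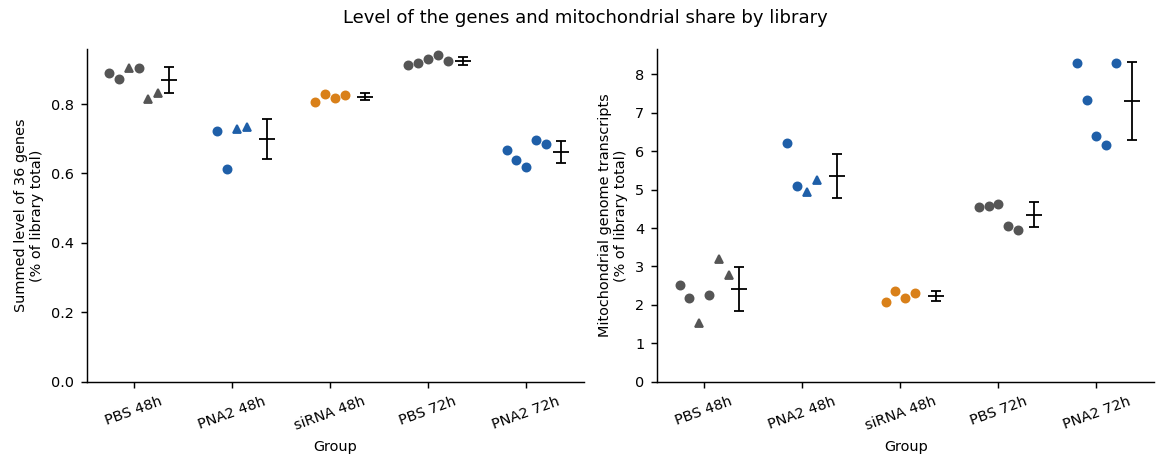
Left, summed level of the 36 genes added by function, and right, transcripts of the mitochondrial genome, each as a percent of the library total, by group, with circles for batch A and the 72 h libraries, triangles for batch B, and the mean and SD in black. The PNA2 groups are lower than their controls on the left and higher on the right.

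Within the 48 h PNA2 libraries, replicate 2 was the lowest, with a summed share of 0.614%. The median gene of the group lay -0.55 from the controls of its batch in that library, and between -0.23 and -0.18 in the other 3. The siRNA libraries lay between -0.21 and -0.18, and the 72 h PNA2 libraries between -0.51 and -0.39, while single control libraries lay between -0.08 and 0.08 of their group. Per kilobase of exon and per M of the total, U2AF2 was the highest of the group in the 72 h controls, at 564.6, followed by SRSF1 at 438.9 and SNRNP70 at 423.1, and U2AF1 was the lowest at 3.49. In the 48 h controls the order was another, with SRSF2 first at 599.1, U2AF2 at 558.3 and SRSF1 at 147.9.

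Other parts of the splicing machinery were read from lists of genes grouped by function. At 72 h with PNA2, 4 of 14 Sm and LSm proteins, the ring proteins of the spliceosomal particles, were higher and 1 was lower, with a median of 0.18. LSM4 differed by 0.75 and LSM2 by 0.54. Of 24 other U1, U2, U5 and tri-snRNP proteins, 5 were higher, led by SF3B5 at 0.62, and 1 was lower, PRPF3 at -0.32. PRP19 complex members and helicases gave 1 higher and 3 lower of 15, with PRPF19 at 0.41 and DDX46 at -0.45. SR protein kinases and phosphatases gave 3 higher and 2 lower of 9, with DYRK1B at 0.60 and DYRK2 at -0.78, and exon junction and decay factors 2 higher and 1 lower of 17, with UPF3B at -0.44. Beside the 12.1% higher and 11.7% lower over all genes, both exon junction counts, the higher count of the PRP19 list and the lower counts of the first lists, the Sm and the snRNP proteins, are at or below the background.

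The closest relatives, 29 other SR-related and speckle-associated genes, were also examined. At 72 h 11 were lower and 0 higher, with a median of -0.24, beside 11.7% of all genes lower. ZRANB2, an SR-like zinc finger protein, was at 2408 ± 256 (SD, n = 5) in the controls and 1234 ± 123 (n = 5) with PNA2, -0.96 ± 0.09. SREK1 was at 1675 ± 169 and 864 ± 116, -0.96 ± 0.10, and CDK11A, the kinase that the L-type cyclins bind, differed by -0.91. At 48 h, 10 of 28 were lower with PNA2 and 0 higher, beside 8.04% of all genes lower. SRRT at -0.56 and CLASRP at -0.50 led them, and without rescaling 0 were lower and 1 higher. With siRNA 1 was lower, SCAF4 at -0.39, a share below the background.

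At 48 h the core lists gave with PNA2 0 lower and 1 higher of 14 Sm and LSm proteins (LSM2, 0.35), 2 lower of 24 snRNP proteins (PRPF3 at -0.44 and SART1 at -0.26), and 5 lower of 15 helicases and PRP19 members, led by DDX46 at -0.40 and DDX23 at -0.39. The first and second of these counts are near the background of 8.11% higher and 8.04% lower. With siRNA, 4 of 14 Sm and LSm proteins were lower, led by SNRPF at -0.54, beside 8.52% of all genes lower. Without rescaling 0 genes of these 3 lists were lower in either comparison with PBS. Set against siRNA, PNA2 had 6 of 14 Sm and LSm proteins higher and 0 lower, beside 12.0% higher of all genes, with LSM2 at 0.69. MALAT1, the long noncoding RNA of speckles, was at 2637 to 9326 with PNA2, 0 to 2147 in the controls and 376.5 to 712.7 with siRNA. Its PNA2 difference did not pass, with an adjusted p of 0.0738. Of the 2 nuclear noncoding RNAs listed, MALAT1 and NEAT1, 0 were called with PNA2, and 1 was called higher without rescaling.

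Of the 42 genes, 21 overlap an annotated gene on the other strand, and the sources do not say whether strand was used in counting. SRSF2 shares its locus with MFSD11, SON with DONSON and GART, and RBM10 with NDUFB11. Of the 12 genes lower at both times, 4 have such a partner, SRSF1, SRSF11, RBM25 and CLK2. Reads of the partners cannot be told apart here.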

How the data were processed

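RNA was extracted with an RNeasy kit and sequenced on a NextSeq 500 after TruSeq stranded preparation, per the labels' protocols, which name total RNA and mRNA without saying which. The submitters' processing notes list HTSeq 0.11.0, SAMtools 1.7, HISAT2 2.2.1, DESeq2 and Trimmomatic, and the build GRCh38. The deposited 72 h signal is counts divided by a size factor (0.73 to 1.187), from which whole reads were recovered in 100% of values within 0.01. The deposited 48 h values are read counts adjusted by batch and not scaled for depth, judged from the values, a unit of its own kind. Batches were read from ties in low values (19.3% to 32.4% within, 0% between): batch A holds PBS 1, 2 and 4, PNA2 1 and 2 and all siRNA libraries, and batch B the rest. Adjustment by batch means that some of the siRNA effect may have been moved into the controls. At 48 h values below 0 were set to 0 and divided by a TMM scale (edgeR 4.0.16). Under R 4.3.3, limma 3.58.1 was fitted to log2(value + 1), with terms for group and batch at 48 h and group alone at 72 h, on genes with 10 or more in at least 4 or 5 libraries. Two-sided p-values were Benjamini-Hochberg adjusted across every gene tested, and 0.05 was the threshold. The fit was tested on simulated data. edgeR and DESeq2 1.42.0 on recovered reads, other scales, pseudocounts (10) and filters (none, 50), the batch term and left-out libraries were alternatives. A gene was named if it was among the 6 chosen, called with siRNA or in both PNA2 comparisons, or the largest change of its role in a comparison, and in the other lists up to 3 called genes were named. Genes and lists were chosen with earlier results of these data known, and the 6 chosen genes were left without a test in the siRNA against PBS comparison too, a restriction set after the results were seen. Symbols altered in the tables were matched by GENCODE 29 identifier.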

Additional observations from a re-analysis of the deposited data

Results flagged for a closer look

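Extreme single libraries were looked for in 210 groups of values (42 genes in 5 groups), and 13 stood out by Dixon's criterion, which chance alone meets in about 1 in 20 groups. PNA2 replicate 2 at 48 h was lowest for SRSF1 (635, others 1348 to 1480), SRSF2 (3515, others 6225 to 6617) and LUC7L2 (552, others 685 to 700). At 72 h PNA2 replicate 1 was highest for SRSF2 (4429, others 1701 to 2200) and SRSF4 (1505, others 929 to 1050). PNA2 replicate 3 was highest for SRSF9 (3845) and RBM10 (1974), replicate 5 was highest for CLK2 (1059), and replicate 2 was lowest for CCNL1 (628). Among the controls, PBS replicate 3 at 48 h was highest for CCNL1 (1658), PBS replicate 2 at 72 h was highest for SRSF2 (3899) and lowest for SRSF9 (2109), and PBS replicate 3 at 72 h was lowest for SRRM1 (1735). SRSF2 thus has 1 high library in each 72 h group.

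The PNA2 difference of CLK1 at 48 h differed between the batches, by -0.72 on the log2 scale (batch B minus batch A). It was 1 of 35 tested genes, near the 2.50% called over all 14136 genes.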

How the results depend on the processing

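Totals of the batch-adjusted values were 11.12 M to 16.17 M per library at 48 h, and recovered reads were 8.22 M to 13.69 M at 72 h. The lowest values were those of DDX39B, at 0 or 1 in every 48 h library, and then U2AF1, at 42 to 151. DDX39B was at 2847 to 5074 at 72 h, and the cause of this difference was not tested. At 72 h, the 23 calls were 19 to 24 under all alternatives. At 48 h the PNA2 count of 19 was 1 without rescaling, with or without the batch term, 12 without a filter, 8 when only the groups compared were fitted, 9 within batch B, and 11 to 20 when single libraries were left out (11 without PBS replicate 1 or 2, 12 without PNA2 replicate 3). The siRNA count of 6 was 0 without rescaling, with or without the batch term, 1 without the batch term, 1 without a filter, 19 with only the groups compared, 10 with batches aligned on their controls, and 1 to 6 when single libraries were left out (1 without PBS replicate 1 or 2 or any siRNA library). The PNA2 against siRNA count of 3 was 1 without rescaling, 0 without batch term and rescaling, 6 with median-of-ratios scaling, 10 with quantile normalization, 6 within batch A, and 2 to 8 when single libraries were left out (8 without PNA2 replicate 1, 5 without replicate 2). The share of all genes called in either direction often moved too (main fit given first). With siRNA it was 17.24%, 32.85% with the compared groups alone, 26.8% with aligned batches and 8.38% without the batch term. For PNA2 against PBS it was 16.16%, 6.92% with the compared groups alone and 5.935% in batch B. Without rescaling it was 15.55% for siRNA and 15.43% for PNA2. Between PNA2 and siRNA it was 23.52%, 25.55% with quantile normalization and 21.67% in batch A. The cause of these shifts was not tested. Same-numbered libraries correlated between -0.065 and 0.297 after removing group means, and different-numbered ones between -0.205 and 0.261. Batch means were not removed at 48 h, so these values cannot decide whether the numbers pair the samples. With the replicate block the counts were 12 for PNA2 and 0 for siRNA at 48 h, 3 between them, and 23 at 72 h. Without rescaling, 25 of 35 genes were negative with PNA2 and 7 of 35 with siRNA, against 35 and 30. Among called values, those that changed sign were SRSF4 (0.013 without rescaling, 0.02 also without batch) and SRSF11 (0.023 and 0.04) with siRNA, and for PNA2 against siRNA SRSF2 (0.233) and TRA2B (0.195) without PNA2 replicate 2 (-0.259 to 0.233 and -0.183 to 0.195 over single libraries left out) and SRRM2 (-0.36) with quantile normalization.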
